A study of Mus musculus with 60 samples.

Results

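The mitochondrial respiratory chain and ATP synthase of mouse microglia were followed across both genomes that encode them. Members were all rows of the bulk RNA tables whose symbol starts with Nduf, Cox4i, Cox5, Cox6, Cox7, Cox8, Uqcr, Sdh or Atp5, pseudogenes named -ps left out, and all rows that start with mt-. This gave 138 of 55413 gene symbols. Of them 89 were counted by symbol as nuclear subunit genes. They were 41 of complex I, 4 of complex II, 8 of complex III, 19 of complex IV and 17 of complex V. RefSeq lists Cox6c2, Ndufs6b and Ndufa11b among them as pseudogenes. A further 12 were assembly factors, the Ndufaf and Sdhaf genes. The mitochondrial genome gave 13 mRNAs, 2 rRNAs and 22 tRNAs. The complex was taken from the symbol, so Ndufa4 counts under complex I although biochemistry places its protein in complex IV.

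Complex I takes electrons from NADH and complex II takes them from succinate. Complex III passes them to cytochrome c and complex IV passes them on to oxygen, while complex V uses the resulting proton gradient to make ATP. Complex II is wholly nuclear-encoded; each of the other complexes joins subunits translated in the cytosol with a few translated inside the mitochondrion. The mitochondrial mRNAs and rRNAs are cut from long polycistronic transcripts, so the supply of matching subunits depends on separate systems of transcription. Microglia, the resident macrophages of the brain, are known to shift between oxidative and glycolytic metabolism when they are activated.

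All mice carried Spp1-CreER:R26-Tdtomato, in which a recombinase driven by the Spp1 gene marks cells permanently with Tdt. Tdt+ cells are thus defined by a label from past Spp1 expression and Tdt- cells by lack of that label. Lack of the label does not show that a cell never expressed Spp1. All mice had a neonatal stroke, the control groups included, since the contralateral microglia came from the other cortex of stroke mice. Each bulk library held RNA of 2000 sorted microglia. A time course followed Tdt+ microglia of the stroke cortex at day 3 (postnatal day 9), day 7 (postnatal day 13) and day 14 (postnatal day 20), with 5 libraries each, and at day 28 (postnatal day 34), with 4 libraries. In separate tables contralateral, Tdt- and Tdt+ microglia were compared at day 7 (3 libraries each), at day 28 (4 each) and at day 28 after lipopolysaccharide, LPS (4 each), a bacterial wall component. Age and time after stroke advance together in the course and cannot be told apart. The labels give neither the LPS dose and timing nor whether libraries came from separate animals, so p-values measure the spread between these libraries. The contralateral libraries at days 7 and 28 were read as Tdt- cells from the column names.

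Values are TPM, a length-corrected transcript level scaled to the same total in every library; read depth is unknown. The 52 bulk libraries each had 11544 to 14093 genes at 1 TPM or more. Microglia markers (P2ry12, Tmem119, Cx3cr1, Csf1r and Sall1) were high in all groups of the course, with a summed level of 7393 to 21647 TPM per library. In bulk samples fewer cells of a type and less RNA per cell cannot be told apart. Tests used limma on log2(TPM + 1) with Benjamini-Hochberg adjustment over all genes tested and a threshold of 0.05, and differences are given on that scale, which understates the change of low genes.

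Promoters of 4 nuclear subunits are shown because each of these genes had, in complex I, III, IV or V, the largest fall from day 3 to day 28 among subunits with a single promoter window. They are the 250 bases before a transcript start in RefSeq (GRCm38.p6), and capitals mark a match to a searched motif. Ndufa1 encodes an accessory subunit of complex I, Uqcrh the hinge protein of complex III, Cox5a a subunit of complex IV and Atp5k the e subunit of ATP synthase. The windows are chrX:37191239-37191488 on the minus strand for Ndufa1, chr4:116075071-116075320 on the minus strand for Uqcrh, chr9:57520982-57521231 on the plus strand for Cox5a and chr5:108434400-108434649 on the minus strand for Atp5k. The Cox5a window belongs to a start inside the gene's RefSeq span, chr9:57517328-57532427, and the other 3 windows end at the edge of their gene's span.
Ndufa1: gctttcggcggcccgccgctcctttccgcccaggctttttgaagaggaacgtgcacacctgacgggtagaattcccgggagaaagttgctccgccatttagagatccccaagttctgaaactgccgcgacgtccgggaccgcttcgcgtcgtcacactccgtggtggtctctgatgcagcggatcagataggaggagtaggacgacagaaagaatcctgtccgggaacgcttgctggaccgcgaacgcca
Uqcrh: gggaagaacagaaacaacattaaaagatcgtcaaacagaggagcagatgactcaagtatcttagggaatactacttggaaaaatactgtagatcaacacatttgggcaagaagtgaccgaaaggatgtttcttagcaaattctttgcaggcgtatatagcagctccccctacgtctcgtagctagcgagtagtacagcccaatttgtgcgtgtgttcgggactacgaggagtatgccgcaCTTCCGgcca
Cox5a: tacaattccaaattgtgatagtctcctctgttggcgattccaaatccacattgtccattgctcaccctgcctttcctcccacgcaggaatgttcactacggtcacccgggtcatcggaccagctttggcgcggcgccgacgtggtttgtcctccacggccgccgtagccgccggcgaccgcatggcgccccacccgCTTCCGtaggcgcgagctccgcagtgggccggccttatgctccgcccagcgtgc
Atp5k: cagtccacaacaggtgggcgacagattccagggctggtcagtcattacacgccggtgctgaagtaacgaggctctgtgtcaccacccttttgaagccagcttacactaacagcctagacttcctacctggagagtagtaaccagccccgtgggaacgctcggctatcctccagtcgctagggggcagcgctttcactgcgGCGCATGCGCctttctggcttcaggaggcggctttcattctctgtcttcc
The capitals in Uqcrh and Cox5a are an ETS core, CTTCCG or CGGAAG on the other strand, and those in Atp5k are the NRF1 motif GCGCATGCGC, a palindrome. Windows of 250 bases before to 50 after the start were found for 69 of the 89 nuclear subunits. The NRF1 motif stood in 5 of the 69 (7.25%), against 2.4% of 9915 genes tested in the course that have a window and 1.07% of all 27025 genes. The ETS core stood in 40.6% of the subunits and 36% of the tested genes, and the YY1 motif AAGATGGCG, or CGCCATCTT, in 10.1% and 3.64%. A TATA letter run, TATAAA or TTTATA, was in 11.6% and 8.97%. These are matches of letters on both strands, with no test.

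In Tdt+ microglia of the stroke cortex both sets of respiratory chain mRNAs were lower at day 28 than at day 3, by nearly the same factor. In the group means the nuclear sum fell most by day 7 and the mitochondrial mRNA sum most after day 14. This difference in timing was not tested. For nuclear subunits the summed level started from 14928 ± 590 TPM at day 3 (SD, n = 5) and went over 10554 ± 1089 (day 7, n = 5) and 9845 ± 935 (day 14, n = 5) to 8286 ± 186 TPM (day 28, n = 4). For mitochondrial mRNA it went from 39464 ± 2159 over 35043 ± 3336 and 32593 ± 2583 to 21318 ± 2034 TPM on the same days. The nuclear sum therefore stood at 70.7% of its day 3 level by day 7 and 55.5% by day 28, while the mitochondrial mRNA sum was still at 82.6% at day 14 and then stood at 54.0%.

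By library, the nuclear sum at day 3 was 15119, 14952, 14082, 15713 and 14776 TPM, and at day 7 it was 10596, 9288, 12270, 10116 and 10499 TPM. At day 14 it was 9085, 9327, 10702, 11013 and 9100 TPM, and at day 28 it was 8484, 8403, 8106 and 8150 TPM. Every day 3 library lay above every later library, and every day 28 library below every earlier one, while days 7 and 14 overlapped. The mitochondrial mRNA sum at day 3 was 42145, 39672, 36928, 40855 and 37719 TPM, and at day 7 it was 33252, 36102, 30531, 35923 and 39408 TPM. At day 14 it was 32639, 30486, 31954, 36960 and 30927 TPM, and at day 28 it was 20389, 20364, 24364 and 20154 TPM. Here days 3, 7 and 14 overlapped each with the next, and all 4 day 28 libraries lay below all others.

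**Figure D1:**
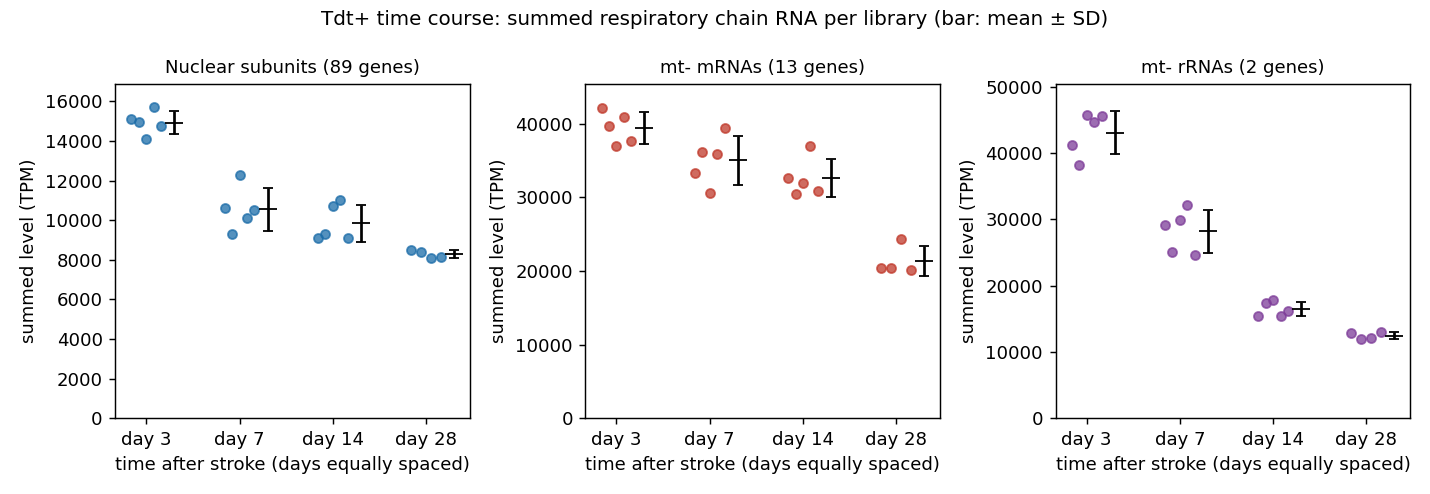
Summed TPM (linear axes from 0) of nuclear subunit mRNAs, mitochondrial mRNAs and mitochondrial rRNAs in each Tdt+ library of the time course, by days after stroke at equal spacing; points are libraries, bars are means and lines are SD. In the means the nuclear sum falls most between days 3 and 7 and the mitochondrial mRNA sum most between days 14 and 28, while the rRNA sum falls at every step.

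The log2 ratio of mitochondrial mRNA to nuclear subunit mRNA, which does not depend on how a library is scaled, had group means of 1.40 ± 0.05, 1.73 ± 0.26, 1.73 ± 0.10 and 1.36 ± 0.15 (SD) on the 4 days in turn. At day 3 it ranged from 1.35 to 1.48 and at day 14 from 1.58 to 1.85, with no overlap. At day 7 it ranged from 1.32 to 1.96 and at day 28 from 1.27 to 1.59, so both overlapped with day 3. By sums the ratio was thus higher at day 14 than at day 3 in every library, and the ends of the course overlapped. With medians in place of sums the ratios of days 3 and 14 overlapped too. The highest day 3 library was at 4.168 and the lowest day 14 library at 4.078. With the pseudogene Gm10925, which may share reads with mt-Atp6, added to the mitochondrial sum, these 2 days did not overlap but nearly touched. The highest day 3 library was then at 1.592 and the lowest day 14 library at 1.601.

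**Figure D2:**
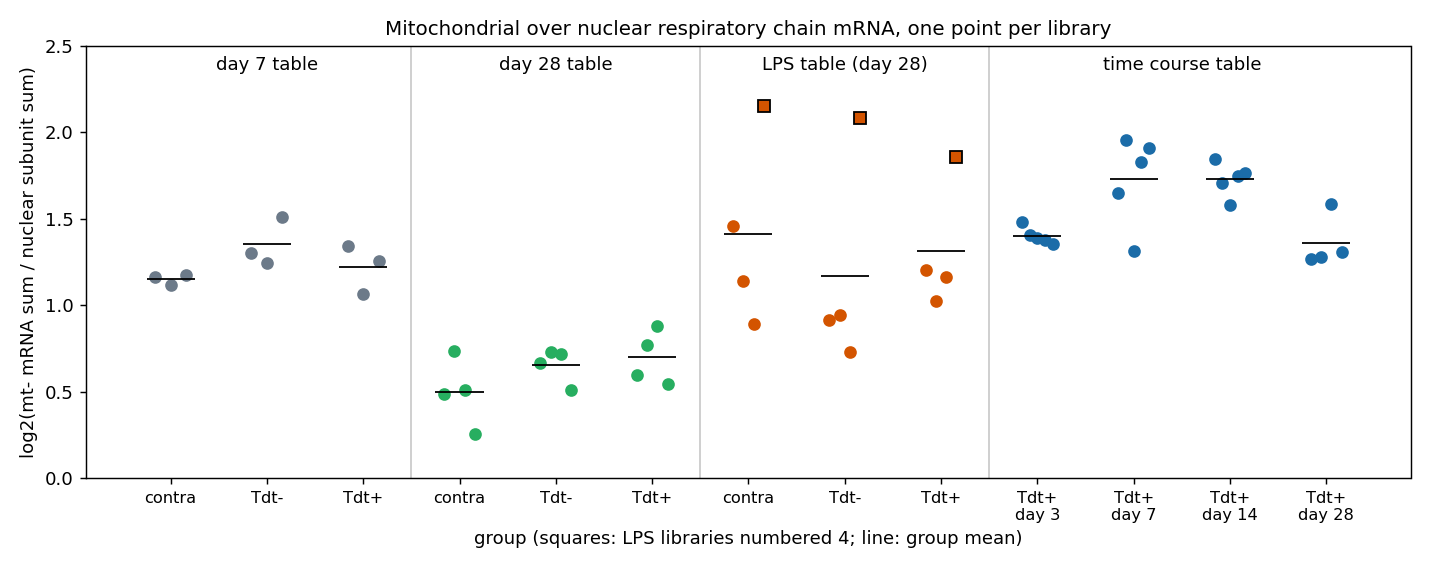
Log2 of summed mitochondrial mRNA over summed nuclear subunit mRNA for each of the 52 libraries, by group; points are libraries and bars are group means. Course values run from 1.27 to 1.96, day 7 values from 1.07 to 1.51, day 28 values from 0.25 to 0.88, and LPS values from 0.73 to 2.16 with the 3 libraries numbered 4 at the top of their groups; levels between tables were not tested.

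The mitochondrial rRNAs, the RNA core of the ribosome that translates the 13 mitochondrial mRNAs, had the deepest fall of the summed classes. Their sum went from 43112 ± 3266 over 28191 ± 3248 and 16467 ± 1111 to 12479 ± 477 TPM, the last being 28.9% of day 3. This level differed widely between tables: Tdt+ cells of the stroke cortex had only 371 to 472.5 TPM in the separate day 28 table. The fall is therefore one within the course libraries, and whether it holds in others was not tested. mt-Rnr2, the 16S rRNA, was 30430, 29418, 33951, 34142 and 34051 TPM at day 3 and 9247, 8548, 8820 and 9284 TPM at day 28. These ranges lay far apart, and the limma difference was -1.85 ± 0.08 log2 units (SE, adjusted p = 9.5e-13). mt-Rnr1, the 12S rRNA, fell by 1.61 ± 0.12 (adjusted p = 2.5e-09). Both also passed the threshold downward from day 3 to day 7 and from day 7 to day 14, and mt-Rnr2 again from day 14 to day 28 (-0.51 ± 0.08, adjusted p = 0.00085).

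From day 3 to day 28, 53 of the 80 nuclear subunits tested fell and none rose, against 7.97% of all 15316 genes tested called lower and 35.6% called higher. Their median difference was -0.80 log2 units, while the median over all genes was +0.56. The median-of-ratios scaling, which sets the middle gene near no change (+0.05), took that shift out; under it 71 nuclear subunits fell, the 53 among them, and the split of all genes went from 5460 higher and 1221 lower to 1672 higher and 2383 lower. The groups did not overlap for 49 of the 80, all lower at day 28, against 6.63% of all genes lower without overlap and 28.8% higher. Of the mitochondrial mRNAs 11 of 13 fell and none rose (median -0.90), and 9 of 13 did not overlap; under quantile normalization only 5 of them passed. The fall was not particular to the chain, since 81 of 89 cytosolic ribosomal protein genes, which are also short and abundant nuclear mRNAs, fell as well (median -1.46).

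The complexes differed in how much they fell, and within each the nuclear and mitochondrial sums ended close together. At day 28 the summed nuclear subunits of complex I were at 66.6% of day 3 and its mitochondrial mRNAs at 66.9%. Complex III stood at 54.9% and 53.7%, complex IV at 40.7% and 36.7%, and complex V at 54.3% and 50.3%. Complex II, which has no mitochondrial mRNA, was at 90.4%. These percentages have SDs of 1.08 to 8.23 percentage points between libraries of day 28. The 2 genomes lay further apart on the days between. At day 7 complex I was at 74.4% for nuclear subunits and 99.9% for mitochondrial mRNAs, complex III at 70.7% and 91.4%, complex IV at 66.9% and 81.2%, and complex V at 69.8% and 82.2%. At day 14 complex I was at 73.5% for nuclear subunits and 102% for mitochondrial mRNAs. Complex III was at 65.6% and 86.3%, complex IV at 52.1% and 64.4%, and complex V at 68.3% and 73.2%. The complex V sums leave out the pseudogene Gm10925, which may share reads with mt-Atp6. Its level was 737 to 3530 TPM at day 3 and 0 to 749 TPM at day 14. Adding it would lower the mitochondrial complex V percentages of days 7, 14 and 28. The complex V gap between the genomes at days 7 and 14, and how close they ended at day 28, therefore depend on this choice.

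**Figure D3:**
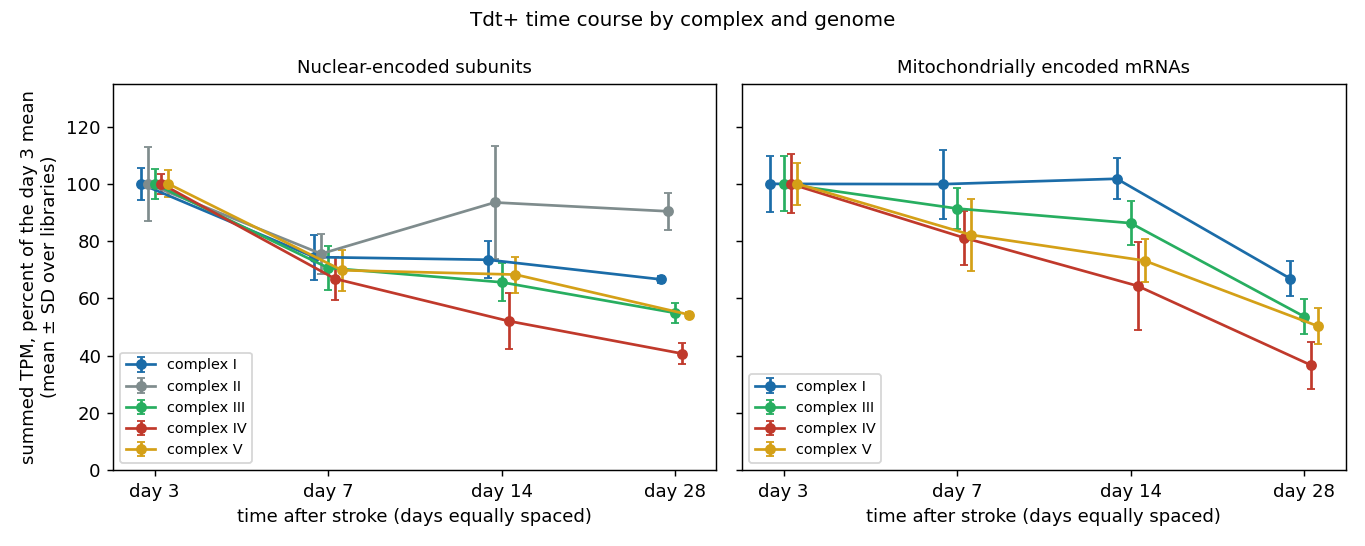
Mean summed level of each complex as a percentage of its day 3 mean (axis from 0), for nuclear subunits and for mitochondrial mRNAs, by days after stroke at equal spacing, with SD over libraries. Lines for the 2 genomes lie close again at day 28 in complexes I, III, IV and V, between 36.7% and 66.9%. At days 7 and 14 the mitochondrial lines were higher. Gm10925 is left out of complex V on all days.

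In complex I, 18 of 38 tested nuclear subunits fell from day 3 to day 28 (median -0.61). Ndufa1 had 235, 305, 215, 270 and 201 TPM at day 3 and 91.7, 99.5, 133 and 64.2 TPM at day 28. The groups did not overlap, and the difference was -1.36 ± 0.21 log2 units (adjusted p = 3.6e-05). Ndufb2, another accessory subunit, fell by 1.28 ± 0.35 (adjusted p = 0.0063). A split made after the values were seen, and so given with no test, set the 7 nuclear core subunits, which carry the redox centres, apart: 0 of 7 passed, with a median of -0.27. Of the other subunits 18 of 31 fell (median -0.77).

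In complex II, Sdhc, a membrane anchor, was the 1 of 4 subunits that fell. It had 71.9, 67.5, 69.6, 72.0 and 71.0 TPM at day 3 and 51.2, 66.8, 24.98 and 37.4 TPM at day 28. The highest day 28 library came within 1 TPM of the lowest at day 3, and the call (-0.72 ± 0.26, adjusted p = 0.033) was lost with no filter, with a replicate block and without any 1 of 5 libraries, numbers 1, 4 and 5 of day 3 and 3 and 4 of day 28. Sdha, the catalytic flavoprotein, had 99.5 to 159 TPM at day 3 and 137 to 168 TPM at day 28, which overlapped.

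In complex III, 7 of 8 subunits fell (median -0.76). Uqcrh had 340, 327, 328, 379 and 390 TPM at day 3 and 137, 131, 126 and 102 TPM at day 28. Every day 3 library was above every day 28 library by more than 2-fold (-1.51 ± 0.15, adjusted p = 1.3e-07). Uqcrq, a small subunit beside cytochrome b, fell by 1.66 ± 0.24 (adjusted p = 1.2e-05). Its mitochondrial partner mt-Cytb, cytochrome b itself, fell by 0.90 ± 0.09 (adjusted p = 2.3e-07).

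Complex IV had the largest median fall, -1.15, with 11 of 13 tested subunits lower. Cox4i1, the most abundant nuclear member of complex IV in all 4 tables and a subunit known for the regulation of the enzyme by ATP, had 895, 828.5, 807, 898 and 848 TPM at day 3. It had 538, 511, 607, 613 and 606 TPM at day 7, 359, 301, 430, 602 and 353 TPM at day 14, and 321, 303, 250 and 229 TPM at day 28. Its range was lower at each step, with overlap between days 7 and 14 and between days 14 and 28, and the difference of the ends was -1.64 ± 0.15 (adjusted p = 2.8e-08). Cox5a fell by 1.53 ± 0.16 (adjusted p = 2.5e-07).

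The catalytic core of complex IV is mitochondrial. mt-Co1, its haem-bearing subunit, had 3814, 3495, 3004, 3618 and 3208 TPM at day 3 and 1332, 1227, 1584 and 1311 TPM at day 28. The groups lay far apart, with a difference of -1.33 ± 0.09 (adjusted p = 6.7e-10). mt-Co2, the subunit that accepts electrons from cytochrome c, fell by 1.56 ± 0.35 (adjusted p = 0.0013). mt-Co3 was listed at 0, or at 0.01 TPM, in all 4 day 28 libraries and in 1 of 5 or 2 of 5 libraries of each earlier day, so its difference (-5.70 ± 2.53, adjusted p = 0.074) is not interpretable as a fold.

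In complex V, 16 of 17 subunits fell (median -0.87). Atp5k had 82.6, 50.9, 78.1, 75.5 and 77.1 TPM at day 3 and 24.7, 26.4, 7.27 and 16.2 TPM at day 28. The groups did not overlap, and the difference of -2.03 ± 0.43 (adjusted p = 0.00083) was the largest of the nuclear subunits that fell. Atp5mpl, a small membrane subunit, fell by 1.63 ± 0.20 (adjusted p = 2.0e-06). Atp5b, the catalytic beta subunit, fell by only 0.31 ± 0.11 (adjusted p = 0.023). The mitochondrial pair, mt-Atp6 and mt-Atp8 of the membrane part, fell by 1.09 ± 0.12 and 0.89 ± 0.13 (adjusted p = 5.6e-07 and 2.5e-05).

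The 7 mitochondrial mRNAs of complex I, all core membrane subunits, varied in size of change. mt-Nd1 fell by 0.44 ± 0.11 (adjusted p = 0.0034) and mt-Nd2 by 0.31 ± 0.09 (adjusted p = 0.011). mt-Nd4, mt-Nd5 and mt-Nd6 fell by 0.73 ± 0.10, 0.67 ± 0.09 and 0.88 ± 0.12 (adjusted p = 1.2e-05, 6.4e-06 and 7.7e-06). mt-Nd3 passed (-3.17 ± 1.19, adjusted p = 0.036) but is listed at 0 in 1 day 28 library and had 169 to 598 TPM in the others, against 385 to 1140 TPM at day 3, which overlapped; the call was lost without that library, without day 3 numbers 2, 3 or 4, with no filter and under quantile normalization. mt-Nd4l, listed at 0 in 11 of 19 course libraries, did not pass.

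**Figure D4:**
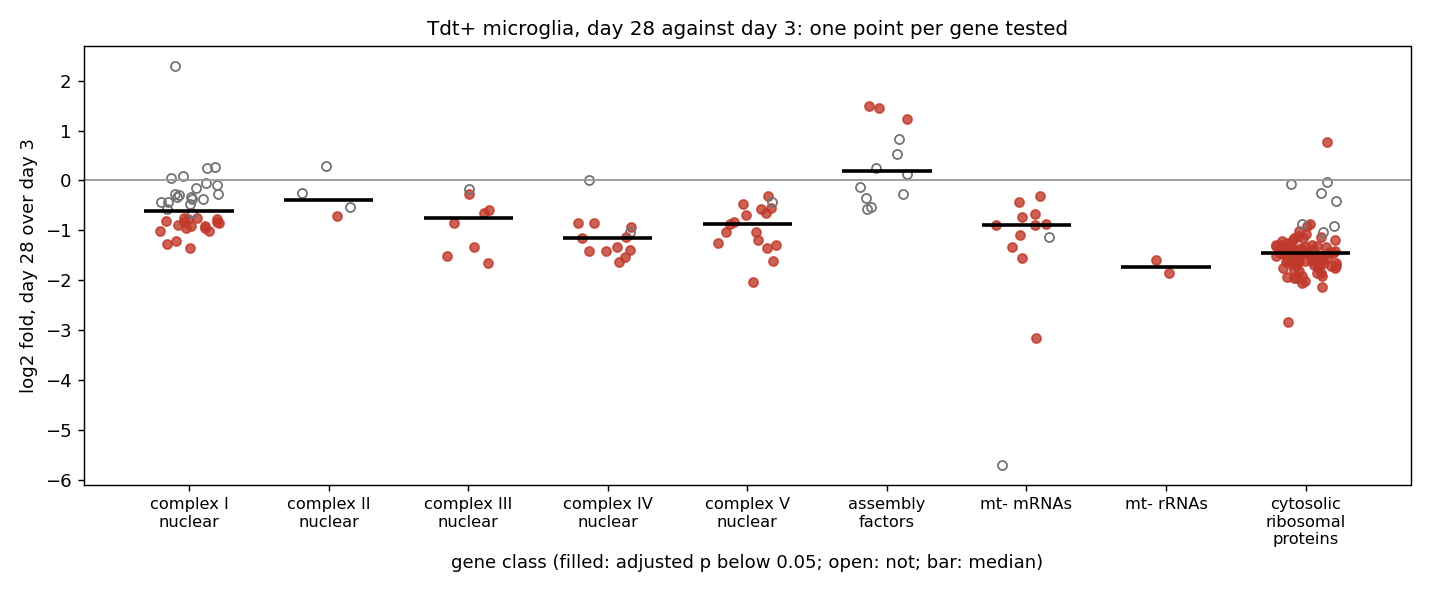
Difference of day 28 from day 3 in log2(TPM + 1) for each tested member by class, 1 point per gene, filled where the adjusted p was below 0.05, with the class median. Nuclear subunits lie mostly below 0 (53 of 80 passed) while assembly factors lie on both sides; mt-Co3 at -5.70 and mt-Nd3 at -3.17 are listed at 0 in some libraries.

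Of 12 assembly factors, which build the complexes but are not part of them, 3 rose from day 3 to day 28 and none fell, against 35.6% of all genes called higher and 7.97% lower. Their share of rises was below that of all genes, their median was +0.19 log2 units, and their difference from the subunits was not tested; under the median-of-ratios scaling 2 rose and 2 fell. Ndufaf4, a complex I assembly factor, had 4.18, 6.63, 6.52, 5.73 and 3.87 TPM at day 3 and 20.7, 17.7, 13.6 and 15.0 TPM at day 28. The groups did not overlap and the difference was +1.48 ± 0.29 (adjusted p = 0.00043). Sdhaf1, which serves complex II, rose by 1.46 ± 0.40 (adjusted p = 0.0059), a call lost under the median-of-ratios and quantile scalings.

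Among the steps of the course, day 3 to day 7 had the most nuclear falls called, though the timing was not tested. From day 3 to day 7, 30 of 80 nuclear subunits fell and none rose, against 4.42% of all genes called lower and 9.93% higher, and 55 fell under the median-of-ratios scaling. Atp5o, the stalk subunit OSCP, fell by 0.93 ± 0.17 (adjusted p = 0.00073), Uqcr11 by 0.94 ± 0.20 (adjusted p = 0.0025) and Cox6b1 by 0.84 ± 0.18 (adjusted p = 0.0036), each with no overlap of the groups. Of the mitochondrial mRNAs 3 of 13 fell, mt-Co1 (-0.41 ± 0.09, adjusted p = 0.0022) with no overlap; 1 of 13 was left with a replicate block and without any 1 of day 3 numbers 1, 4 and 5 or day 7 numbers 1, 3 and 4. Ndufaf7 was the 1 of 12 assembly factors that rose (+0.55 ± 0.16, adjusted p = 0.028), a call lost under the median-of-ratios and quantile scalings and without any 1 of day 3 numbers 2 and 4 or day 7 numbers 2, 3 and 5.

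From day 7 to day 14, 4 of 80 nuclear subunits fell and 1 rose, against 1.54% of all genes called lower and 4.46% higher. Ndufs7, a core iron-sulfur subunit of complex I, rose by 0.72 ± 0.17 (adjusted p = 0.012), a call lost under the median-of-ratios and quantile scalings. The largest fall was that of Ndufc1, an accessory subunit of complex I. It was -2.25 to -1.43 log2 units over fits that each left out 1 library. Cox4i1 fell by 0.53 ± 0.14 (adjusted p = 0.025), and Cox7a2l, a supercomplex factor, fell by 0.53 ± 0.14 (adjusted p = 0.028). Without day 14 number 4, 8 passed; without number 5, 1 passed; without day 14 number 1, 3 passed; and without day 14 number 2 or day 7 number 1, 3 or 5, 2 passed. No mitochondrial mRNA passed by limma at this step, and 3 of 13 had an unadjusted p below 0.05, against 19.3% of all genes; the smallest p was that of mt-Co1 (-0.28 ± 0.09, adjusted p = 0.059), which did not overlap between the groups.

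From day 14 to day 28, 6 of 13 mitochondrial mRNAs fell (median -0.64), against 2.21% of all genes called lower and 4.06% higher, with 7 of 80 nuclear subunits lower and 1 higher (median -0.19). Of these 8 nuclear calls 3 to 5 were left without day 14 number 3 or 4 or day 28 number 2 or 3. mt-Cytb had 3541, 3459, 3791, 4247 and 3481 TPM at day 14 and 2443, 2010, 2591 and 2169 TPM at day 28. The groups did not overlap (-0.69 ± 0.09, adjusted p = 0.00019), and the same held for mt-Atp6 (-0.73 ± 0.12, adjusted p = 0.0013). Under quantile normalization 1 of the 6 remained. The nuclear subunit that rose, Ndufc1, an accessory subunit of complex I, had 39.6, 14.22, 6.82, 3.1 and 7.3 TPM at day 14 and 59.4, 44.1, 81.9 and 87.2 TPM at day 28. Its day 14 values were also below all of day 3 (46.7 to 137 TPM), and the rise was +2.60 ± 0.52 (adjusted p = 0.0052).

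Lists of genes around the chain are read against the 35.6% of all genes called higher and 7.97% called lower from day 3 to day 28. Of 24 genes of mitochondrial transcription and RNA handling 9 rose and 1 fell (median +0.72), a share of rises near that of all genes, the largest being Lrpprc, which stabilises mitochondrial mRNAs (+1.69 ± 0.32, adjusted p = 0.00032), and Tfb2m, a mitochondrial transcription factor (+1.46 ± 0.32, adjusted p = 0.0012). Of 11 regulators of mitochondrial gene expression 8 rose and none fell (median +0.85), a share of rises above that of all genes, led by the corepressor Nrip1 (+1.57 ± 0.18, adjusted p = 8.6e-07) and the coactivator Pprc1 (+1.45 ± 0.33, adjusted p = 0.0013). These medians stand near or above the +0.56 of all genes, and under the median-of-ratios scaling 3 genes of RNA handling rose and 2 fell, 1 regulator rose, and Tfb2m and Pprc1 no longer passed. Of 35 other assembly factors 7 rose, a share below that of all genes, among them the copper chaperones Sco2 and Cox11 (+1.36 ± 0.28 and +1.44 ± 0.47, adjusted p = 0.00066 and 0.018), but under that scaling 0 rose and 6 fell, and neither of these passed.

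Of 78 mitochondrial ribosomal protein genes 6 rose and 14 fell (median +0.04), so rises were rarer and falls more common than over all genes. Of 17 tricarboxylic acid cycle genes 2 rose, with Pdhb (+0.69 ± 0.13, adjusted p = 0.00024) of the pyruvate dehydrogenase complex the larger (not past the threshold under the median-of-ratios scaling), and 1 fell, Idh3b (-0.53 ± 0.12, adjusted p = 0.0013). Of 17 electron carrier and ubiquinone genes 4 rose and 2 fell; in both of these lists the share of rises was below that of all genes. Ucp2, a mitochondrial carrier of the uncoupling protein family, fell from 1297 ± 104 to 596 ± 47.8 TPM (-1.12 ± 0.11, adjusted p = 5.2e-08), and stood at 589 ± 32.9 TPM already at day 7. Atpif1, the inhibitor of ATP synthase, fell by 0.88 ± 0.15 (adjusted p = 0.00011).

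Other measures moved with the course. The summed level of border macrophage markers (Mrc1, Cd163, Lyve1, Pf4 and Cbr2) was 128 to 204 TPM at day 3, 27.3 to 39.3 at day 7, 12.5 to 29.8 at day 14 and 7.97 to 40.8 at day 28. The summed microglia markers were 8246, 16938, 19785 and 17544 TPM in the group means of days 3, 7, 14 and 28. The summed astrocyte markers ranged from 23.5 to 34.1 TPM at day 3 and from 110 to 120 TPM at day 28, oligodendrocyte markers from 14.37 to 28.51 and from 35.3 to 69.6 TPM, and endothelial markers from 2.56 to 7.44 and from 13.5 to 24.5 TPM. B cell markers ranged from 92.6 to 114 TPM at day 3 and from 42.3 to 67.9 TPM at day 28. Genes at 1 TPM or more numbered 12596 to 13492 at day 3 and 13749 to 14093 at day 28. None of these ranges overlapped between the ends of the course. Monocyte, neuron, erythroid, and T and NK cell markers overlapped, and neutrophil markers were at 0 in every library after day 3. Their part in the respiratory chain results was not tested.

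Between Tdt+, Tdt- and contralateral microglia no member passed the threshold in any of the 9 comparisons or the 2 interactions by limma. At day 7 the share of all 12637 genes called was 0.0712% for Tdt+ against contralateral, 0.0158% for Tdt+ against Tdt- and 0.00791% for Tdt- against contralateral, and at day 28 it was 0% in all 3. At an unadjusted p below 0.05, 4, 6 and 6 of 81 nuclear subunits were found in these comparisons at day 7, against 7.18%, 5.24% and 5.68% of all genes, and 5, 2 and 1 of 80 at day 28, against 4.6%, 3.72% and 4.52%. Of the mitochondrial mRNAs 1 to 3 of 11 had such a p in each of the 6 comparisons. The nuclear sums at day 7 were 17272 ± 311 (contralateral), 16131 ± 892 (Tdt-) and 16724 ± 1025 TPM (Tdt+), and the mitochondrial mRNA sums 38411 ± 1456, 41188 ± 2280 and 38993 ± 1439 TPM (SD, n = 3). At day 28 the nuclear sums were 13152 ± 1023, 12487 ± 378 and 12423 ± 773 TPM and the mitochondrial ones 18563 ± 1506, 19679 ± 1017 and 20145 ± 956 TPM (SD, n = 4). In each of these sums the groups overlapped. The log2 ratio of mitochondrial to nuclear sums at day 7 was 1.24 to 1.51 in Tdt- and 1.12 to 1.18 in contralateral libraries, with no overlap. With medians in place of sums these groups overlapped, and the ratio was not tested. In the other comparisons of days 7 and 28 the ratios overlapped.

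The smallest p of any mitochondrial mRNA at day 7 was that of mt-Co1 in Tdt+ against contralateral cells, at 3659 against 2771 TPM with no overlap (+0.41 ± 0.09, adjusted p = 0.22). At day 28 mt-Nd5 stood at 438 against 319 TPM in the same comparison (+0.47 ± 0.13, adjusted p = 0.94). A p that misses the threshold does not show that the groups were alike.

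After LPS 1.35% of all 13397 genes tested were called between Tdt+ and contralateral microglia, 0% between Tdt+ and Tdt- and 0.0149% between Tdt- and contralateral, with no member among them. At an unadjusted p below 0.05, 1, 2 and 10 of 80 nuclear subunits were found, against 11.5%, 4.61% and 5.75% of all genes. With the replicate number as a block, which pairs the libraries in the comparisons with Tdt+, the calls over all genes went from 120 higher and 61 lower to 323 and 607 for Tdt+ against contralateral and from 0 to 40 and 22 against Tdt-, still with no member. In Tdt- against contralateral cells 66 of 80 nuclear subunits were on the higher side, with a median of +0.19 against -0.10 for all genes. In Tdt+ against Tdt- cells 73 of 80 were on the lower side, with a median of -0.15 against -0.03. Cytosolic ribosomal proteins had the same sides, 88 of 88 higher (median +0.31) and 86 of 88 lower (median -0.19), and both comparisons share the Tdt- libraries. Genes of a list also share libraries and TPM scaling, so the counts on a side are not independent and were not tested. The lead nuclear values were Cox7c (365 against 265 TPM, +0.46 ± 0.14, adjusted p = 0.64) and Atp5k (118 against 65.4 TPM, +0.77 ± 0.24, adjusted p = 0.68), both in Tdt- against contralateral cells. The interactions of the Tdt+ differences with LPS called 0.397% of 12085 genes against contralateral cells and 0% against Tdt- cells, and no member; 4 and 1 of 80 nuclear subunits had an unadjusted p below 0.05, against 7.75% and 3.59% of the genes. With the block 1 mitochondrial mRNA passed in the first.

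After LPS the libraries numbered 4 stood apart, in mitochondrial mRNA and in other sums. Their summed mitochondrial mRNA was 58622 TPM in the contralateral, 61855 in the Tdt- and 55647 in the Tdt+ group, while the other 9 libraries ranged from 29747 to 37994 TPM. That is 1.70, 1.92 and 1.66 times the mean of the others of the group. Mitochondrial rRNA was 1.91, 1.52 and 1.52 times and the nuclear sum 0.853, 0.822 and 0.998 times that mean. The summed assembly factors of the libraries numbered 4 were 213, 255 and 256 TPM in the same order, against 330 to 403 TPM in the other LPS libraries. Their summed microglia markers were 8959, 7956 and 6888 TPM, against 9402 to 14165 TPM in the others. In all 3 groups 9 of 13 mitochondrial mRNAs and both rRNAs were above every other library of the group, against 2 of 83 nuclear subunits (2.41%) and 9.33% of 17502 genes at 1 TPM or more in some LPS library. Number 4 had the highest correlation across genes of the 4 numbers between each pair of groups (0.551, 0.524 and 0.563). The labels do not say whether equal numbers share an animal, and the source of the difference was not tested. Without them no member passed by limma in the fits without a block, and 1 nuclear subunit passed in Tdt- against contralateral with the block.

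**Figure D5:**
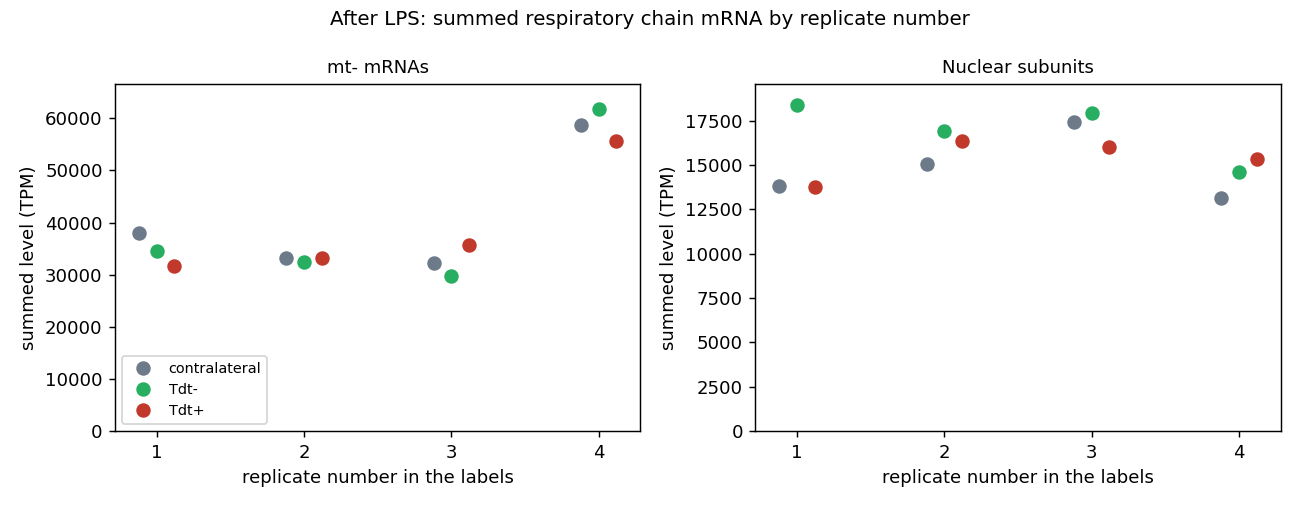
Summed mitochondrial mRNA and summed nuclear subunit mRNA (TPM, axes from 0) of the 12 LPS libraries against their replicate number, coloured by group and offset sideways for legibility. The 3 libraries numbered 4 lie at 55647 to 61855 TPM for mitochondrial mRNA, above all others at 29747 to 37994 TPM, but not above them for nuclear subunits.

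Across libraries of a table, deviations from the group means were more alike among mitochondrial mRNAs than among nuclear subunits. The median pairwise Pearson r, over mRNAs above 0 in every library, was 0.54 among mitochondrial mRNAs and 0.11 among nuclear subunits in the course (19 libraries), and 0.92 and 0.41 after LPS (12 libraries), where number 4 is included. It was 0.22 and 0.07 at day 7 (9 libraries) and 0.13 and 0.11 at day 28 (12 libraries). Between the sets it was -0.03 in the course and -0.44 after LPS. These genes share their library and its TPM scaling, which ties their values together.

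In level, the highest nuclear member of complex IV was Cox4i1 and of complex II was Sdhb in each table. Of subunit pairs with a widespread and a tissue-restricted form the widespread forms Cox4i1, Cox6a1, Cox7a2 and Cox8a were present in every library, while Cox4i2, Cox7a1 and Cox8b were at 0 in most. Cox6a2, known from heart and skeletal muscle, had 9.21 to 29.6 TPM in all 12 LPS libraries. Without LPS it had up to 10.4 TPM at day 28. These values come from separate tables, and the difference was not tested. Members listed at 0 in every library numbered 26, the 22 mitochondrial tRNAs and Cox7b2, Ndufa11b, Ndufa4l2 and Ndufs6b.

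The levels of mitochondrial mRNAs against each other depended on the table. mt-Nd1 made 19.2% of the summed mitochondrial mRNA in the course, 31.4% after LPS, 44.6% at day 7 and 47.9% at day 28. The rRNA sum was 12012 to 45758 TPM in course libraries but 590 to 836 in the day 7 and 285 to 473 TPM in the day 28 table, although Tdt+ cells of the stroke cortex at days 7 and 28 are in both. Levels across tables are therefore not compared here. mt-Co3 was listed at 0 in 6 of 9, 9 of 12, 6 of 12 and 7 of 19 libraries of the day 7, day 28, LPS and course tables.

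Reads of some mitochondrial mRNAs may be split with copies or neighbours, which makes their values uncertain. mt-Atp6 (chrMT:7927-8607, GRCm38.p6) shares its name as a synonym in RefSeq with the pseudogene Gm10925 (chr1:24613971-24614651). Both are 681 bases long, and their sequences were not compared here. Gm10925 carried up to 42.3% of the summed level of the pair. Over the 13 groups the median coefficient of variation was 15.0% for mt-Atp6 alone and 9.61% for the sum, smaller for the sum in 11. mt-Atp8 and mt-Atp6 overlap by 43 bases, mt-Nd5 and mt-Nd6 by 14 on opposite strands, mt-Nd4l and mt-Nd4 by 7 and mt-Atp6 and mt-Co3 by 1.

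The motif content of the promoters can be set beside the course. Of the 44 nuclear subunits with a window that fell from day 3 to day 28, 22 held the ETS core (50%), 4 the NRF1 motif (9.09%) and 2 the YY1 motif (4.55%). Of the 22 tested subunits with a window that did not pass, 6 held the ETS core (27.3%), 1 the NRF1 motif (4.55%) and 5 the YY1 motif (22.7%). These shares rest on few genes and were not tested, and a match or its absence says nothing of binding. The 101 nuclear members with a RefSeq position lie on 19 chromosomes.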

How the data were processed

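The deposited values are TPM, which the authors made with cutadapt 2.10, STAR 2.7.5c and RSEM 1.3.3 on GRCm38, per the submitters' processing notes. The submitters' processing notes also name edgeR, with no role given. TPM keeps no depth, so precision is given by the spread between libraries. Libraries were prepared with a modified SMART-Seq2 protocol, per the labels. Of 60 samples, 52 bulk libraries were used; ATAC and single-cell samples were not analysed here. Groups came from the labels, and 7 columns (3 of day 7, 4 of day 28, Tdt+ contralateral by name) matched no listed sample and were not used.

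In R 4.3.3, limma 3.58.1 with an intensity trend was fitted per table to log2(TPM + 1), with all groups in a fit, for genes at 1 TPM or more in at least as many libraries as the smallest group. p-values were adjusted over all genes tested. The fits were also run on simulated data with independent noise per gene, so that run does not cover effects shared within a library. Interactions joined the day 28 and LPS tables. Sums, ratios, promoter matches and figures were made in Python 3.11.15 with pandas 2.3.3; scores over members have no p.

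Members and lists were chosen with earlier results of these data known. Named genes are, per class and comparison, the 2 largest rises and falls that passed, or else the member with the smallest p, plus the mitochondrial genes, the highest and lowest subunits and paralog pairs; Atp5b, Sdha and Ndufaf7 were added after their values were seen. A subunit that the rule names and a microglia marker are not reported here. Equal replicate numbers were taken as pairs where every pair's deviations correlated above 0.1: Tdt+ against contralateral (0.194 to 0.551) and against Tdt- (0.123 to 0.524) after LPS. Alternatives were other pseudocounts, filters and scalings, the block, and leaving out each library.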

Additional observations from a re-analysis of the deposited data

Results flagged for a closer look

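Of 365 groups of values checked for a library far from the others of its group, 32 (8.77%) had one, where the threshold used gives about 1 in 20 by chance for independent values; these values share libraries and TPM scaling. Many came from the LPS libraries numbered 4, which were high in mitochondrial RNA. The mitochondrial mRNA sum was 61855 TPM in the Tdt- library, with the others at 29747 to 34600, and 55647 TPM in the Tdt+ library, with the others at 31694 to 35786. The Tdt+ library also had a rRNA sum of 6376 TPM, and the Tdt- library a log2 ratio of mitochondrial to nuclear mRNA of 2.08 and a low complex I nuclear sum of 4634 TPM. Among single genes the Tdt+ library stood high in mt-Nd1 (18555 TPM), mt-Nd4 (3091), mt-Nd5 (3542), mt-Nd6 (884.6), mt-Co2 (2072) and mt-Rnr2 (5608) and low in Atp5md (263.7). The Tdt- library stood high in mt-Nd5 (3838 TPM) and mt-Nd6 (927.7), and the contralateral library in mt-Atp8 (10707), mt-Co1 (3101) and mt-Rnr2 (6683).

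Other LPS libraries were apart in nuclear genes. Contralateral number 3 was high in Atp5md (344.9 TPM), Cox6b1 (393.9) and Uqcrq (339.0), and contralateral number 1 was low in Ndufa1 (95.9 TPM). Tdt- number 1 was high in Cox4i1 (806.3 TPM), and Tdt+ number 1 had a low complex IV nuclear sum (3070 TPM).

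In the course, day 28 number 3 had the highest mitochondrial mRNA sum of its day, 24364 TPM against 20154 to 20389, and a log2 ratio of 1.59 against 1.27 to 1.31. The complex II sum stood apart in day 14 number 1 (519.5 TPM) and day 28 number 2 (408.3 TPM), both high. Atp5k was low in day 3 number 2 (50.9 TPM), and day 7 number 5 was low in Uqcr11 (77.6 TPM) and high in mt-Nd5 (2242 TPM). At day 28 without LPS, mt-Atp6 was high in Tdt+ number 3 (4682 TPM) and mt-Co1 in contralateral number 4 (1784 TPM).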

How the results depend on the processing

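From day 3 to day 28 all 53 nuclear falls remained under the 4 other scalings and 49 with the replicate block; leaving out 1 library gave 50 to 54 nuclear calls and 10 to 12 mitochondrial mRNA calls, and quantile normalization gave 5 of the latter. From day 3 to day 7, 55 nuclear calls were made under median-of-ratios scaling; mitochondrial mRNA calls were 1 with no filter, 6 under median-of-ratios, 1 with the replicate block and 1 to 3 without 1 library. From day 7 to day 14 nuclear calls were 1 with no filter, 9 under median-of-ratios, 10 under quantile, 9 when scaled to coding nuclear genes and 1 to 8 without 1 library. Mitochondrial mRNA calls there were 1 at a minimum of 10 TPM, 1 when scaled without mt- rows, 2 under median-of-ratios, 1 under quantile, 2 when scaled to coding nuclear genes and 0 to 1 without 1 library. From day 14 to day 28 nuclear calls were 5 with no filter, 14 under median-of-ratios and 3 to 10 without 1 library, and quantile normalization gave 1 mitochondrial mRNA call. The split of all genes into higher and lower under median-of-ratios was 741 and 1245, 298 and 361, and 308 and 621 for the 3 steps, against 1521 and 677, 683 and 236, and 622 and 339.

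In the other comparisons the counts of members called were 0 under every alternative run except 1 nuclear call (Tdt- against contralateral after LPS, without the libraries numbered 4, with replicate block) and 1 mitochondrial mRNA call (interaction against contralateral, replicate block). The log2 ratio from medians gave differences of 0.252 for Tdt+ and -0.028 for Tdt- at day 28, the first against Tdt- and the second against contralateral cells. No called value reversed. Among values that did not pass, Uqcrc2 was 0.015 (median-of-ratios) and mt-Rnr2 -0.027 (quantile) in Tdt+ against contralateral after LPS; without 1 library mt-Rnr2 ranged from -0.15 to 0.25 there and from -0.35 to 0.050 in the interaction. mt-Rnr1 ranged from -0.27 to 0.017 in Tdt+ against Tdt- after LPS, from -0.55 to 0.022 in its interaction and from -0.17 to 0.40 at day 28. The cause of these shifts was not tested. The replicate numbers were not treated as pairs in the course and at days 7 and 28, where the lowest correlation of a comparison was -0.03 to 0.08. Equal numbers were still often the best match at days 7 and 28. They were so in 3 of 3 pairs of each day 7 comparison. At day 28 they were so in 3 of 4 pairs for Tdt+ against contralateral and 4 of 4 in the other comparisons. In the course they were so in 0 or 1 pairs of each comparison. The block changed no other count of members past 1.5 times. The alternatives without the libraries numbered 4, scaled to coding nuclear genes and with Gm10925 added were chosen after seeing the data. Depth is unknown, so what it limits cannot be given.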
